A study of Mus musculus with 4 samples.

Results

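The Id genes Id1, Id2, Id3 and Id4 encode inhibitors of basic helix-loop-helix (bHLH) transcription factors, and their RNA was examined in 4 primary mammary tumors of female mice. The 4 genes were found by symbol among 23746 rows of the expression tables, and all 4 were among the 12752 genes kept by a filter that asked for 1 FPKM or more in 2 or more of the 4 tumors. FPKM (fragments per kilobase of transcript, scaled to all mapped fragments) is corrected for transcript length, so that levels can be set side by side between genes. The family was chosen by its own FPKM, which was already known to separate these tumors by genotype. The genotype differences of its members are therefore given as descriptions without a test.

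Tumors 26043 and 26044 came from WapCre;Rank;Brca1;p53 females, called triple-mutant here, and tumors 26048 and 26050 from WapCre;Brca1;p53 females, called double-mutant. All 4 tumors thus arose with conditional Brca1 and p53 alleles and the WapCreC transgene, whose Cre acts in luminal as well as basal mammary epithelium, and the conditional Rank allele is what sets the genotypes apart. The study describes the females as littermates. Age, strain and grade of each sequenced tumor are not given in the sources used here. In the study's wider set of tumors, double-mutant females had high-grade and also intermediate-grade tumors, while triple-mutant females had intermediate-grade and never high-grade ones. Whether the 4 sequenced tumors differed in grade is therefore unknown, and a part of grade in the differences was not tested. Nothing ties a triple-mutant tumor to a particular double-mutant one. With 2 tumors per genotype, each SD below rests on 2 values.

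Id proteins carry a helix-loop-helix but lack the basic region that contacts DNA. They pair with E proteins (the products of Tcf3, Tcf4 and Tcf12) and keep them from binding E-box sequences with tissue-restricted bHLH partners. Bone morphogenetic proteins (BMPs), acting through Smad1, Smad5, Smad9 and Smad4, are among the best known inducers of Id transcription, and in the mammary gland Id4 is known from the basal layer, where mammary stem cells lie, and Id2 from the luminal and milk-producing lineage.

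To show the sequence context of the family, promoter sequence of RefSeq (build GRCm38.p6, from 250 bases before to 50 bases after the start of transcription) was searched for 3 motifs on both strands, for Id2, Id3 and Id4. The motif GGCGCC, a GC-rich element known to be bound by BMP-activated Smads, reads the same on both strands and was found in 11.9% of the 32851 promoters of the table, with 1 copy each in the promoters of Id2 and Id4 and 0 in that of Id3. It is shown in capitals below, with the bases around it, read 5′ to 3′ on the strand of the gene.
Id2, chr12:25096306-25096335, minus strand: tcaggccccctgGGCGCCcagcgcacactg
Id4, chr13:48260956-48260985, plus strand: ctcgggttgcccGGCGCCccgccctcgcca
The E-box CAGGTG, a site that E proteins bind, was found in 20.2% of all promoters and the TATA box sequence TATAAA in 13.6%. Neither exact sequence was found in these 3 promoters. Variants of either element were not searched for, so their absence is not shown. The 30 bases directly before each start are given next to show the start regions themselves, with no letters marked.
Id2, chr12:25096093-25096122, minus strand: acataaaagacgccccgcccggctcgcgct
Id3, chr4:136143792-136143821, plus strand: ctataagagtcggccgctgcaggcgtgcgc
Id4, chr13:48261086-48261115, plus strand: acaaatactgctgtgccggagccgagcgac
The whole windows had 63.3% G and C for Id2, 60% for Id3 and 73.3% for Id4, against a median of 52.7% over all promoters. The window of Id4 stood at percentile 94.5 of all promoters in this respect. The RefSeq start of Id4 lies 311 bases before the gene start used in the expression tables. The RefSeq starts of Id2 and Id3 are those of the expression tables, at 25096092 and 136143822. The GENCODE M21 annotation begins these genes farther upstream, at 25097140 and 136143497, so by that annotation both windows lie inside the gene. Id1 was left out because the promoter source has no entry for it.

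Id4 was the member that separated the genotypes most widely (chromosome 13 from 48261427 to 48264036, plus strand, GRCm38). It had 191 FPKM in tumor 26043 and 179.6 FPKM in tumor 26044, and 1.78 FPKM in tumor 26048 and 0.499 FPKM in tumor 26050. Both triple-mutant tumors were high, both double-mutant tumors were near or under 1 FPKM, and the genotypes did not overlap. The lower of the triple-mutant tumors stood 101-fold above the higher of the double-mutant tumors. The means were 185 ± 8.32 FPKM and 1.14 ± 0.908 FPKM (SD, n = 2 each), and the difference on the log2(FPKM + 1) scale was 6.51 with a standard error of 0.40 from limma, in absolute size rank 6 among the 12752 genes. In each triple-mutant tumor Id4 stood above 95.6% or more of the tested genes, whereas in the double-mutant tumors it stood at percentiles 10.5 and 2.79.

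Id3 showed the same order of tumors at a smaller distance (chromosome 4 from 136143822 to 136145392, plus strand). Its level was 185 FPKM in tumor 26043, 172 FPKM in tumor 26044, 19.8 FPKM in tumor 26048 and 5.37 FPKM in tumor 26050. The triple-mutant tumors differed 1.08-fold from each other and the double-mutant tumors 3.69-fold, and the gap between the genotypes was 8.70-fold at its narrowest. The means of 179 ± 9.40 FPKM and 12.6 ± 10.2 FPKM (SD, n = 2 each) differed by 3.96 log2 units (standard error 0.62). Unlike Id4, Id3 was still measured well above 1 FPKM in both double-mutant tumors.

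Id1 was also higher in the triple-mutant tumors, with more spread (chromosome 2 from 152736274 to 152737410, plus strand). Tumors 26043 and 26044 had 94.6 and 55.8 FPKM, and tumors 26048 and 26050 had 20.2 and 4.64 FPKM. No overlap was seen, but the 2.76-fold gap between the genotypes was smaller than the 4.36-fold spread between the double-mutant tumors. The means were 75.2 ± 27.4 FPKM and 12.4 ± 11.0 FPKM (SD, n = 2 each), with a difference of 2.75 log2 units (standard error 0.73) that dropped to 1.79 without tumor 26050, whose level was the lowest.

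Id2 was the member with the opposite direction, and its difference rested largely on 1 tumor (chromosome 12 from 25093799 to 25096092, minus strand). It had 65.9 FPKM in tumor 26043, 12.2 FPKM in tumor 26044, 76.2 FPKM in tumor 26048 and 106 FPKM in tumor 26050. Tumor 26044 alone was low, and tumor 26043 was only 1.16-fold under the lower of the double-mutant tumors. The means of 39.1 ± 38.0 FPKM and 91.2 ± 21.3 FPKM (SD, n = 2 each) differed by -1.61 log2 units (standard error 0.83), which became -0.44 without tumor 26044 and -2.78 without tumor 26043. The triple-mutant tumors differed from each other by 2.34 log2 units, more than the genotypes did.

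Of the 4 members, 3 were higher in both triple-mutant tumors and 1 was lower, each without overlap and by at least 1 log2 unit. Over all tested genes, the genotypes did not overlap for 44.3%, with the triple-mutant pair above for 21.3% and below for 22.9%. With a difference of at least 1 log2 unit these shares were 7.3% and 4.65%. Since the same contrast chose the family, nothing is read from its own count.

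**Figure D1:**
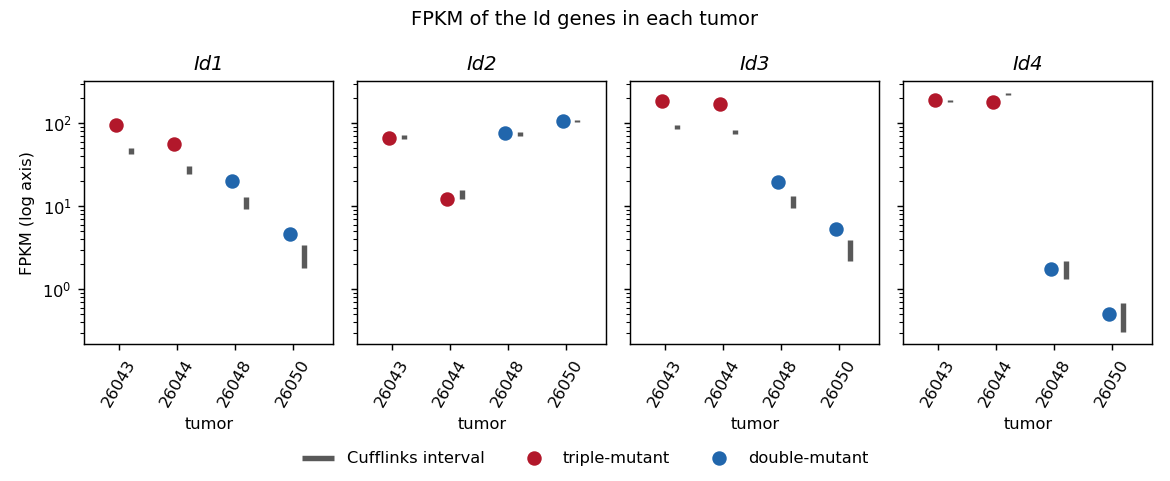
FPKM (log axis) of Id1, Id2, Id3 and Id4 in each of the 4 tumors, with triple-mutant tumors as red and double-mutant tumors as blue points and the Cufflinks confidence interval as a grey bar to the right of each point. Id4 had 191 and 179.6 FPKM in the triple-mutant pair and 1.78 and 0.499 FPKM in the double-mutant pair, and Id2 is the only panel in which a triple-mutant tumor (26044, 12.2 FPKM) is the lowest.

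The order of the 4 genes differed between the genotypes. By FPKM, it was Id4, Id3, Id1 and Id2 from high to low in both triple-mutant tumors. In those tumors Id4 and Id3 did not differ beyond their spread, and neither did Id1 and Id2. In both double-mutant tumors Id2 stood first and Id4 last, while Id1 and Id3 stood between them at levels that did not differ beyond their spread and that changed places between the tumors. Id2 thus made up 64.6% of the summed Id FPKM in tumor 26048 and 91.0% in tumor 26050, but 12.3% in tumor 26043 and 2.92% in tumor 26044. For Id4 the share was 35.6% in tumor 26043 and 42.8% in tumor 26044, but 1.51% and 0.427% in the double-mutant pair.

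The summed Id FPKM was 537 in tumor 26043 and 419.7 in tumor 26044, against 118 in tumor 26048 and 117 in tumor 26050. The double-mutant tumors reached nearly the same sum by FPKM although tumor 26050 had the higher Id2 and the lower Id1, Id3 and Id4 of the pair. With the midpoints of the Cufflinks intervals the sums were 389 in tumor 26043, 346 in 26044, 98.3 in 26048 and 112 in 26050, so the double-mutant tumors lay farther apart. Since a tumor is a mix of cells, fewer cells of a type and less RNA per cell cannot be told apart in any of these values.

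Levels between the members carry a limit of the deposited estimates. For Id1 and Id3 the FPKM lay above its own Cufflinks interval in every tumor, at 1.78 to 2.03 times the interval midpoint for Id1 and 1.74 to 2.17 times for Id3, while for Id4 it lay between 0.799 and 1.04 times the midpoint and for Id2 between 0.873 and 1.03 times. The FPKM of Id4 was also outside its interval in the triple-mutant tumors, above one of 179 to 189 in tumor 26043 and below one of 218 to 232 in tumor 26044, so that tumor 26044 was the higher by midpoint. With the midpoints in place of the FPKM, Id4 made up 47.2% and 65.0% of the Id sum in tumors 26043 and 26044 and Id3 23.1% and 22.9%, and the levels of Id4 and Id3 then lay apart. The order changed too. In tumor 26043 Id2, at 17.6% of the midpoint sum, stood above Id1, at 12.1%, and in both double-mutant tumors Id3 stood above Id1, by 11.5% against 11.4% in tumor 26048 and by 2.75% against 2.32% in tumor 26050. The interval midpoint changed the direction of none of the 4 genotype differences.

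The genes of the E proteins, the partners that Id proteins hold back, differed by at most 1.13 log2 units between the genotypes. Tcf3, which encodes E12 and E47, had 77.2 and 113 FPKM in the triple-mutant and 52.2 and 50.8 FPKM in the double-mutant tumors, without overlap. The difference was 0.85 log2 units (standard error 0.31, limma adjusted p = 0.50 after Benjamini-Hochberg correction for all tested genes). Tcf4, which encodes E2-2, had 17.1 and 23.8 against 12.8 and 5.83 FPKM, a difference of 1.13 log2 units (standard error 0.46, limma adjusted p = 0.53). Tcf12, which encodes HEB, had 22.5 FPKM in both triple-mutant tumors, between the 24.6 and 16.8 FPKM of the double-mutant tumors.

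Set against the summed FPKM of the 3 E protein genes, the Id sum was 4.60 times as high in tumor 26043, 2.63 times in tumor 26044, 1.32 times in tumor 26048 and 1.59 times in tumor 26050. Tumor 26044, the lower of the triple-mutant pair, was still above either double-mutant tumor. This ratio contains the members themselves and is a description, and it was 3.31, 2.15, 1.10 and 1.53 in the same order of tumors with interval midpoints.

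**Figure D2:**
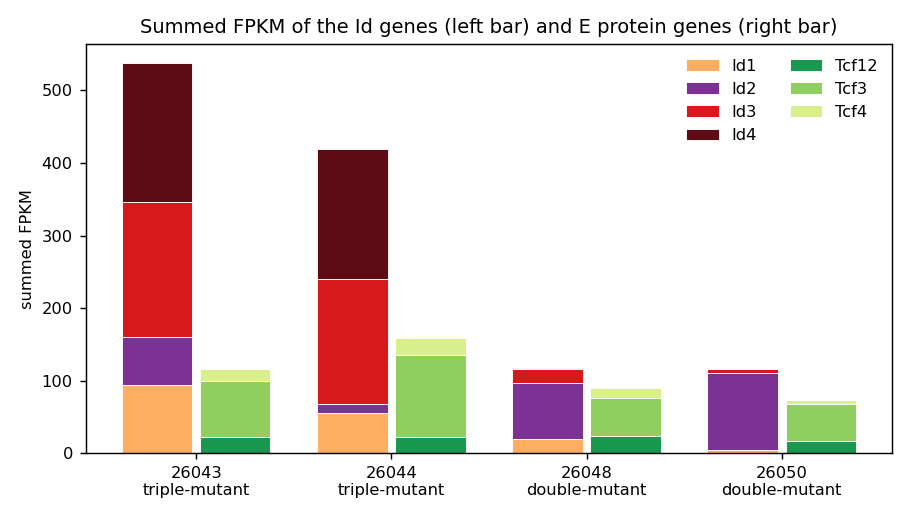
Summed FPKM of the 4 Id genes (left bar of each pair) and of the 3 E protein genes (right bar) in each tumor, stacked by gene. The Id bars reach 537 and 419.7 FPKM in triple-mutant tumors, mostly Id3 and Id4, and 118 and 117 FPKM in double-mutant tumors, mostly Id2.

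For no gene of the table did the genotype difference pass an adjusted p of 0.05 with limma (0 of 12752, 0%), and 754 genes (5.91%) had an unadjusted p under 0.05 with higher and 498 (3.91%) with lower expression in triple-mutant tumors. The gene groups below are therefore described by counts, by their median log2 difference beside the median of -0.02 over all tested genes, and by values. They were read against the 21.3% of genes without overlap that were higher and the 22.9% that were lower.

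Of the tissue-restricted bHLH factors and the Hes and Hey repressors, 13 of 55 genes in the tables passed the filter, 2 of them only through the triple-mutant tumors, and 22 to 27 of the 55 were at 0 FPKM in each tumor. Among the 13, 3 were higher and 2 lower without overlap, 3 had an unadjusted p under 0.05 upward and 1 downward, and the median difference was 0.26, which became 0.50 without tumor 26043, 0.68 without tumor 26048 and 0.41 with a pseudocount of 0.1 FPKM. Hes1, a Notch target and bHLH repressor, had 71.5 and 75.2 FPKM against 28.1 and 28.3 FPKM (difference 1.35, standard error 0.25). Bhlha15 (Mist1), a bHLH factor of secretory cells, had 5.71 and 0.487 FPKM in tumors 26043 and 26044 against 10.8 and 23.2 FPKM in tumors 26048 and 26050 (difference -2.42, standard error 0.85). Like Id2, it was lowest in tumor 26044. Tal2 and Atoh8 were the other genes without overlap and a difference of at least 1, at 1.64 (standard error 0.30) and 1.26 (standard error 0.44), and neither exceeded 3.60 FPKM in any tumor. Both passed the filter only through the triple-mutant tumors and could only come out higher.

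Among the BMP-type ligands, Bmp7 had the highest FPKM in every tumor but 26048, where Bmp5 stood above it. Bmp7 had 87.4 FPKM in tumor 26043 and 249.6 FPKM in tumor 26044 against 1.57 and 6.86 FPKM in tumors 26048 and 26050, a difference of 5.05 log2 units (standard error 0.77, limma adjusted p = 0.22). Of the triple-mutant tumors, 26044 thus had the higher Bmp7. By FPKM, Id1, Id3 and Id4 were higher in tumor 26043, but by interval midpoint Id4 was higher in tumor 26044. A part of Bmp7 in the Id differences was not tested. Of 13 ligand genes 4 passed the filter, 2 of them only through the triple-mutant tumors. These were Bmp4 and Bmp6, which could only come out higher. Nothing is therefore read from the count without overlap (3 higher and 0 lower, all 3 with an unadjusted p under 0.05). The median difference was 0.84 and was set by Bmp4 and Bmp6, at 0.86 and 0.82. This median was 1.75 with a pseudocount of 0.1 FPKM, and Bmp7 alone passed a filter of 5 FPKM. Bmp5 was at 6.64 FPKM in tumor 26048 and under 0.1 FPKM in the others, and did not pass the filter.

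The receptors and Smads through which BMPs act differed by less than 1 log2 unit each. Of 11 genes 9 passed the filter, 2 were higher and 1 was lower without overlap, 1 had an unadjusted p under 0.05, upward, and the median difference was 0.21. That median was 0.12 without tumor 26043, 0.098 without tumor 26044, 0.46 without tumor 26048, 0.033 without tumor 26050 and 0.36 with interval midpoints. Smad4, the common partner Smad, had 26.8 and 29.7 FPKM in the triple-mutant tumors, within the range of 33.8 and 22.0 FPKM of the double-mutant tumors. Smad5 had 20.2 and 22.3 FPKM against 19.3 and 10.4 FPKM (difference 0.55, standard error 0.39).

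Antagonists that bind or compete with BMPs were on the same side as Id1, Id3 and Id4. Of 15 genes 6 passed the filter, 1 of them only through the triple-mutant tumors, and 5 were higher and 0 lower without overlap, 4 of them with an unadjusted p under 0.05, at a median of 0.98. Sostdc1 (ectodin or WISE), a secreted BMP and Wnt antagonist, had 40.1 FPKM in tumor 26043, 5.31 FPKM in tumor 26044 and under 0.15 FPKM in the double-mutant tumors (difference 3.82, standard error 0.94). Sostdc1 was the gene that passed the filter only through the triple-mutant tumors, and it could only come out higher. Fst, encoding follistatin, which binds activins and BMPs, had 43.2 FPKM in tumor 26043 but 4.08 FPKM in tumor 26044, near the 3.12 and 1.69 FPKM of the double-mutant tumors (difference 2.17, standard error 1.09). Nbl1 and Twsg1 differed by 1.09 (standard error 0.40) and 0.85 (standard error 0.28).

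Other textbook targets of BMP and Smad signaling, with the Id genes left out, made up a list of 12 genes, of which 10 passed the filter. Of these, 5 passed only through the triple-mutant tumors and could only come out higher, so nothing is read from the count of the list (7 higher and 0 lower without overlap, each of the 7 with an unadjusted p under 0.05). Its median of 1.28 was 0.40 for the 4 genes that passed a filter of 5 FPKM, and 2.32 with a pseudocount of 0.1 FPKM. The other 5 were Bambi, Runx2, Smad6, Smad7 and Hey1. Runx2, a regulator of bone formation, had 4.70 and 4.38 FPKM against 1.33 and 0.514 FPKM (difference 1.56, standard error 0.36), and Bambi, a decoy receptor, had 5.43 and 4.67 FPKM against 2.59 and 2.06 FPKM (difference 0.87, standard error 0.31). The tumors overlapped for the inhibitory Smads Smad6 and Smad7, at 0.51 (standard error 0.69) and 0.29 (standard error 0.38). They also overlapped for Hey1, which is a Notch target as well, at -0.26 (standard error 0.49), a difference that turned to 0.33 without tumor 26050. Among the genes that passed through the triple-mutant tumors alone, Dlx3, a homeobox gene of stratified epithelium and placenta, had 22.3 and 59.9 FPKM against 0.504 and 0.212 FPKM (difference 4.80, standard error 0.56). Tbx3, a T-box gene needed for mammary placode formation, had 13.0 and 2.09 FPKM against 0.774 and 0.229 FPKM (difference 2.15, standard error 0.80), and Msx2 differed by 1.59 (standard error 0.38).

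The TGF-beta branch, which signals through Smad2 and Smad3, held genes on either side. All 11 passed the filter, 1 was higher and 5 were lower without overlap, 1 had an unadjusted p under 0.05 upward and 1 downward, and the median difference was -0.29, which became 0.036 without tumor 26044, -0.70 without tumor 26043 and -0.56 without tumor 26050. Tgfbr3 (betaglycan), a co-receptor that presents TGF-beta 2 and also binds BMPs, had 11.9 and 41.6 FPKM against 2.45 and 3.36 FPKM (difference 2.60, standard error 0.65). The ligand genes Tgfb2 and Tgfb3 had differences of -1.55 (standard error 0.62) and -1.05 (standard error 0.38).

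Some CDK inhibitor genes are textbook targets that E proteins activate and Id proteins hold back, and 7 CDK inhibitor genes were listed. All 7 passed the filter, 5 were higher and 0 lower without overlap, the side on which Id1, Id3 and Id4 also lay, and 3 had an unadjusted p under 0.05, all upward. The median difference was 1.23. Cdkn2a, which encodes p16 and p19Arf, had 291 and 153 FPKM against 101 and 75.2 FPKM (difference 1.26, standard error 0.42). Cdkn1b, encoding p27, had 39.1 and 38.5 FPKM against 11.1 and 18.9 FPKM (difference 1.36, standard error 0.35). Cdkn2c and Cdkn2d differed by 1.24 (standard error 0.51) and 1.13 (standard error 0.28). The tumors overlapped for Cdkn1a, encoding p21, at 42.8 and 7.39 FPKM against 8.64 and 8.71 FPKM. They also overlapped for Cdkn1c, at 6.69 and 80.9 FPKM against 18.2 and 4.98 FPKM.

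**Figure D3:**
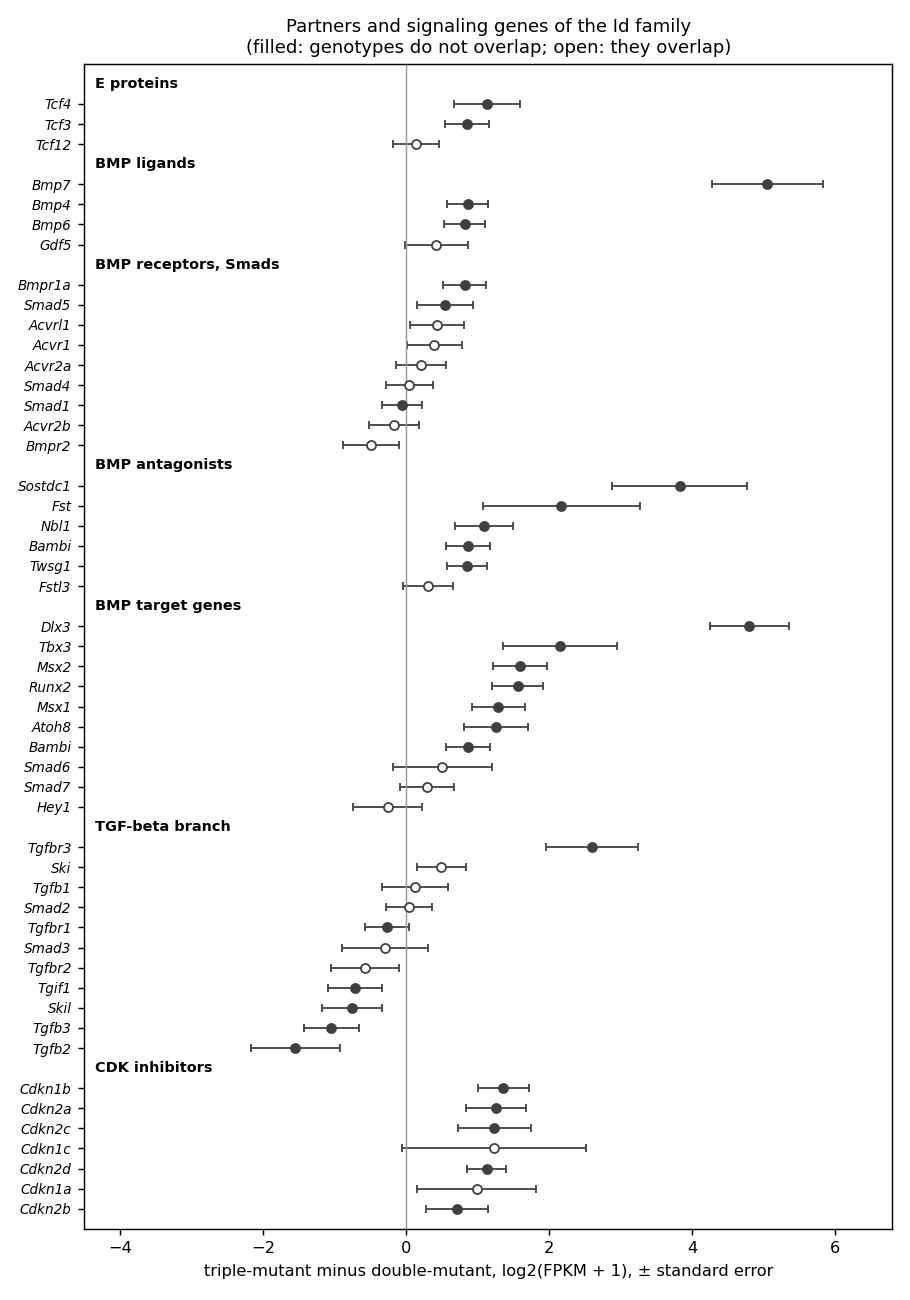
Difference between genotypes, triple-mutant minus double-mutant on the log2(FPKM + 1) scale with its standard error, for the tested genes of the E proteins, the BMP and TGF-beta pathways and the CDK inhibitors, with filled points where the tumors of the genotypes do not overlap. Bmp7 (5.05) and Dlx3 (4.80) lie farthest to the right, while 5 of the 11 genes of the TGF-beta branch lie left of 0 without overlap.

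Id4 is known to hold back luminal genes and Brca1 in the mammary epithelium, and 10 genes of that side were set beside it. All 10 passed the filter, 2 of them only through the triple-mutant tumors. Without overlap, 6 were higher and 2 lower, and 5 had an unadjusted p under 0.05, all upward. Among the 6 and among the 5 were Esr1 and Pgr, which passed only through the triple-mutant tumors and could only come out higher. The median was 1.48 and became 0.87 without tumor 26043 and 2.08 without tumor 26044. The 2 lower genes were Elf5 and Brca1. Brca1 had 3.26 and 3.28 FPKM against 3.84 and 5.69 FPKM, but it is itself targeted in all 4 tumors, so nothing is read from its level. Foxa1, a pioneer factor of hormone-sensing luminal cells, had 40.9 and 8.44 FPKM against 3.62 and 0.341 FPKM (difference 3.0, standard error 0.97). Cited1, a transcriptional co-activator of estrogen response, had 11.9 and 81.3 FPKM against 0.773 and 4.78 FPKM (difference 3.35, standard error 1.09), and Areg, the EGF-receptor ligand amphiregulin, differed by 2.42 (standard error 0.67). Elf5, a regulator of the milk-producing alveolar lineage, had 43.6 FPKM in tumor 26043, 4.84 FPKM in tumor 26044, 66.0 FPKM in tumor 26048 and 103 FPKM in tumor 26050, the same order of tumors as Id2 (difference -2.37, standard error 1.02). Gata3, a luminal regulator, had 74.0 and 7.99 FPKM against 16.5 and 49.5 FPKM and overlapped.

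Most markers of the basal layer were higher in the triple-mutant tumors, the side of Id1, Id3 and Id4 but not of Id2. Of 10 markers of basal and myoepithelial cells 9 passed the filter, 7 were higher and 0 lower in triple-mutant tumors without overlap, 5 with an unadjusted p under 0.05, at a median of 3.06. Summed, they reached 1780.3 FPKM in tumor 26043 and 1629.7 FPKM in tumor 26044, but 118 and 86.9 FPKM in the double-mutant pair, and none was at 0 in any tumor. The sums of the triple-mutant tumors came from different genes, mostly from the keratins Krt5, Krt14 and Krt17 in tumor 26043 and from the smooth muscle genes Acta2 and Tagln in tumor 26044. Acta2 had 64.8 FPKM in tumor 26043 and 898 FPKM in tumor 26044 against 59.7 and 31.8 FPKM in the double-mutant pair, and Tagln had 26.7 and 306.5 FPKM against 44.3 and 37.6 FPKM, with overlap. Krt5, a basal keratin, had 596 and 114 FPKM against 1.15 and 2.06 FPKM (difference 6.68, standard error 0.85), and Trp63, the regulator of basal identity, had 28.5 and 48.1 FPKM against 1.24 and 0.670 FPKM (difference 4.30, standard error 0.41). Krt17 and Krt14 differed by 5.72 (standard error 0.57) and 5.04 (standard error 1.37). Like Id4, Trp63 was near 1 FPKM in both double-mutant tumors. In the study's stains, CK5 and p63, the proteins of Krt5 and Trp63, were reduced or largely lost in high-grade double-mutant tumors. Intermediate-grade tumors of both genotypes kept CK5. Krt14 ranged from 611 FPKM in tumor 26043 to 42.5 FPKM in tumor 26044.

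The 12 luminal markers, all tested, 1 of them passing only through the double-mutant tumors, summed to 4446 FPKM in tumor 26043, 565 FPKM in tumor 26044, 3886 FPKM in tumor 26048 and 8461 FPKM in tumor 26050. This sum was lowest in tumor 26044 and highest in tumor 26050, as was Id2, but tumor 26043 stood above 26048, unlike for Id2. In tumor 26050 it came mostly from the milk protein genes Lalba and Csn3, at 3813 and 1990 FPKM. The place of tumor 26050 as the highest rested on these genes. Elf5 and Kit were also lowest in tumor 26044 and highest in tumor 26050. In contrast, Cldn3, Cldn4 and Krt19 were highest in tumor 26043, and Krt8, Krt18, Epcam and Csn2 in tumor 26048. Without overlap 1 marker was higher and 7 were lower in the triple-mutant tumors, 3 of them with an unadjusted p under 0.05, downward, at a median of -1.77 that became -0.33 without tumor 26044 and -2.96 without tumor 26043. Wap, which passed only through the double-mutant tumors, could only come out lower. The milk protein genes Lalba and Csn3 had the widest differences, at -7.98 (standard error 1.08) and -4.53 (standard error 1.41), while Krt19 was on the other side at 2.40 (standard error 0.98). The part of basal and luminal cells in the Id differences was not tested.

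Of the other cell types, endothelial cells are known to express Id1 and Id3. Of 10 endothelial markers 9 passed the filter, 1 was higher and 0 lower without overlap, and 0 had an unadjusted p under 0.05. Their sum was 49.1 FPKM in tumor 26043, 160.1 FPKM in 26044, 75.2 FPKM in 26048 and 39.9 FPKM in 26050. Fibroblast markers (7 of 8 tested, 1 higher and 4 lower without overlap, 4 with an unadjusted p under 0.05, downward) summed to 206 and 123 FPKM against 901 and 433 FPKM. Macrophage markers (7 of 7 in the tables, 0 higher and 5 lower without overlap, 4 with an unadjusted p under 0.05, downward) summed to 239 and 159 FPKM against 572 and 346 FPKM. Both sums were lower in the triple-mutant tumors, on the side of Id2 and against that of Id1, Id3 and Id4. The part of endothelial cells, fibroblasts and macrophages in the Id differences was not tested.

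The sums of the adipocyte, muscle and keratinocyte markers were each highest by far in 1 tumor. The 6 adipocyte markers (1 tested) summed to 1420.5 FPKM in tumor 26048, 261 FPKM in tumor 26044 and at most 32.0 FPKM in the others, and 4 of the 6 were at 0 in tumor 26044. The 6 skeletal muscle markers (1 tested) summed to 34.3 FPKM in tumor 26050 and at most 2.92 FPKM elsewhere. The markers of differentiated keratinocytes (2 of 5 tested) summed to 52.6 FPKM in tumor 26043 and at most 5.40 FPKM elsewhere, and the 9 lymphocyte markers (2 tested) to 1.06 to 6.62 FPKM. The 6 glial markers (4 tested) summed to 234 to 326 FPKM, nearly all from Sox10, a gene that mammary epithelium also expresses, with 298 and 269 FPKM in triple-mutant and 292 and 225 FPKM in double-mutant tumors.

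To see which other genes followed each member, log2(FPKM + 1) was centered on the mean of the 4 tumors, and genes were ranked by Euclidean distance from the member among 11525 tested genes that were neither small RNA nor predicted genes. With 4 tumors such a ranking describes these tumors and nothing further. The profiles were not scaled, so the distance also grows with a gap in the size of the differences. Nearest to Id4 were Krt17 (distance 1.58), Trim29 (1.84), Krt5 (1.90), Dlx3 (2.05) and Wnt6 (2.08). Krt17, Trim29 and Krt5 are genes of basal or stratified epithelium, and Wnt6 is a Wnt ligand that stood at 22.7 FPKM in 26043 and 43.2 FPKM in 26044 but at only 0.235 and 0.298 FPKM in the double-mutant pair.

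Nearest to Id3 were Ccnd1 (distance 0.64), Mest (0.87), Snai2 (0.94), Tbx2 (0.96) and Matn2 (1.02). Ccnd1, which encodes cyclin D1, had 302 and 342 FPKM in the triple-mutant and 34.0 and 17.0 FPKM in the double-mutant tumors, and Snai2 (Slug) encodes a zinc-finger factor of basal mammary cells. Nearest to Id1 were Calml3 (0.52), Clip4 (0.67), S100a16 (0.70), Col7a1 (0.72) and Ngef (0.76), of which Col7a1 encodes the collagen of the fibrils that anchor epithelium to its basement membrane. Id1 ranked 19 among the genes nearest to Id3, and Id3 ranked 52 among those nearest to Id1. Id3 ranked 12 and Id1 ranked 77 among those nearest to Id4. In the other direction Id4 ranked 262 among those nearest to Id3, but only 10226 among those nearest to Id1. Id4 and Id1 were nonetheless both higher in the triple-mutant tumors, by 6.51 and 2.75 log2 units.

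Id2 was far from each of its relatives in this ranking. Its nearest genes were Epb4.1l4a (0.18), Ugt8a (0.19), Pigr (0.20), Chrm3 (0.22) and Hpn (0.23), while Id1 ranked 11293, Id3 11477 and Id4 11524 of 11525. Pigr, the receptor that carries immunoglobulin A across glandular epithelium into milk, had 4.76 FPKM in tumor 26043, 0.0942 FPKM in tumor 26044, 5.62 FPKM in tumor 26048 and 9.61 FPKM in tumor 26050. The 5 genes nearest to Id2 all shared its single low tumor, 26044.

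**Figure D4:**
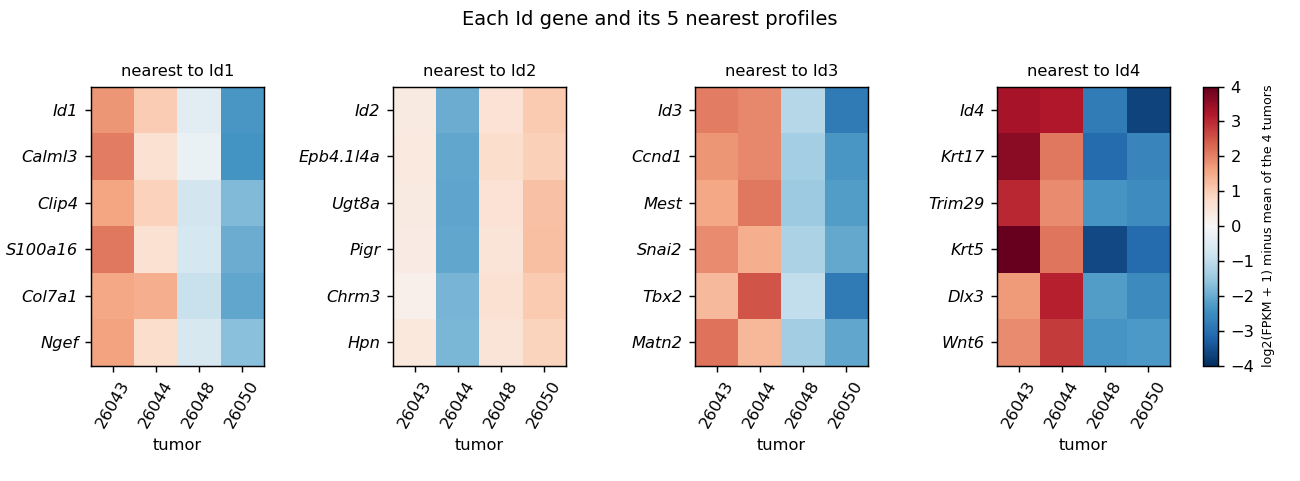
Each Id gene with its 5 nearest genes, as log2(FPKM + 1) minus the mean of the 4 tumors, from blue (below the mean) to red (above it), 1 column per tumor. Id1, Id3 and Id4 and their nearest genes are red in tumors 26043 and 26044 and blue in 26048 and 26050, while Id2 and its nearest genes are blue in tumor 26044 alone.

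The 4 genes lie on different chromosomes, and the genes around each were compared for the same difference. Within 1 Mb of Id4, 12 genes were tested, with 4 higher and 1 lower without overlap, a median difference of 0.27 and a range from -1.06 to 2.25. The highest was the nearest tested gene, A330048O09Rik, a long noncoding RNA gene 8382 bases away on the opposite strand, which had 5.02 and 3.77 FPKM in triple-mutant tumors and 0.270 and 0 FPKM in double-mutant tumors (difference 2.25, standard error 0.33). GENCODE M21 also places A330033J07Rik and Gm49291 on the opposite strand across 1396 and 1364 bases of Id4, and neither is a row of the expression tables. The libraries kept strand, but whether the FPKM estimate used it is not given in the sources used here, so reads of Id4 and of these overlapping genes may not be separated.

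Around Id3, 28 genes were tested within 1 Mb, with 13 higher and 4 lower without overlap and a median of 0.36. Its flanking genes Rpl11 and E2f2, at -90451 and 27002 bases from it (a minus sign marks lower coordinates), differed by 0.58 (standard error 0.40) and 0.70 (standard error 0.42). Around Id1, 30 genes were tested, with 9 higher and 7 lower without overlap and a median of 0.08. Of its flanking genes, H13 differed by -0.28 (standard error 0.25), and Cox4i2, encoding an oxygen-regulated subunit of cytochrome c oxidase, had 11.5 and 96.6 FPKM against 3.01 and 1.09 FPKM (difference 3.59, standard error 1.07). Cox4i2 was thus highest in tumor 26044, where Id1 was lower than in tumor 26043. A second gene in this window, singled out after its values were seen, also differed by more than Id1. It was Rspo4, encoding an R-spondin that enhances Wnt signaling, at -861606 bases, with 6.81 and 7.23 FPKM against 0.0602 and 0 FPKM (difference 2.96, standard error 0.30).

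Around Id2 all 7 tested genes were lower in both triple-mutant tumors, at -1.69 to -0.51 with a median of -0.76. The flanking gene Kidins220, at -34102 bases, had 5.95 and 4.25 FPKM against 7.54 and 7.62 FPKM (difference -0.51, standard error 0.32). Its lowest value, like that of Id2, was in tumor 26044.

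**Figure D5:**
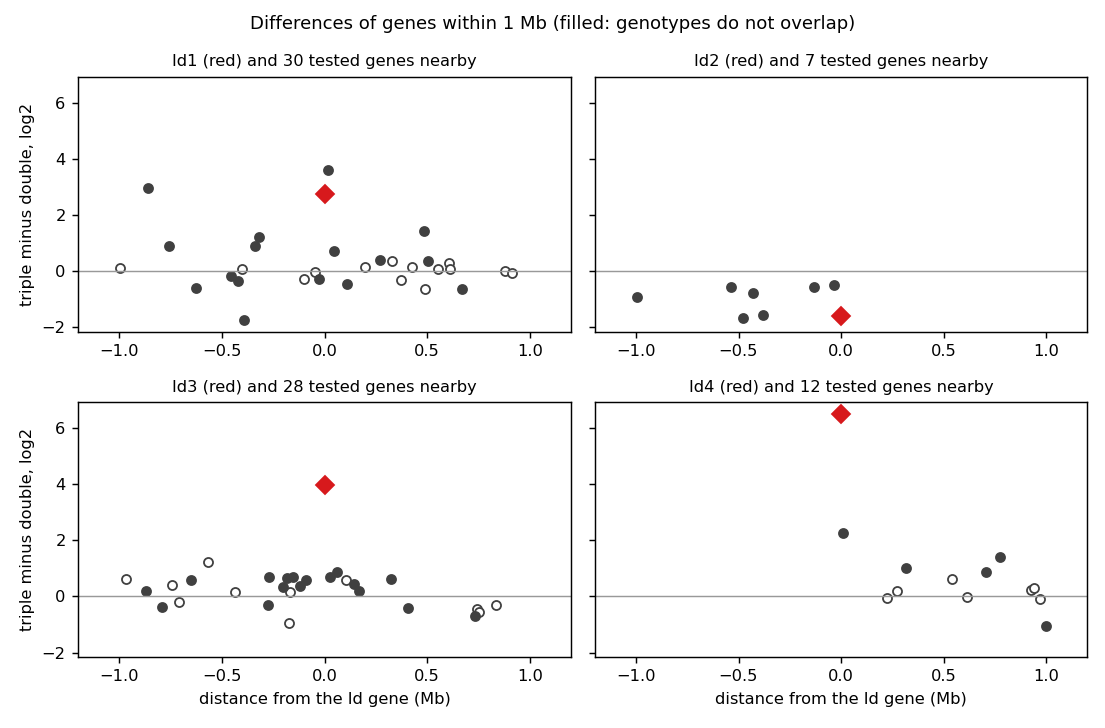
Difference between genotypes (triple-mutant minus double-mutant, log2 scale) of each tested gene within 1 Mb of Id1, Id2, Id3 and Id4 against its distance from the Id gene, with the Id gene as a red diamond and filled points where the genotypes do not overlap. Id3 (3.96) and Id4 (6.51) stand above every tested neighbor, Cox4i2 (3.59) and Rspo4 (2.96) stand above Id1 (2.75), and all 7 neighbors of Id2 lie below 0.

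In GENCODE M21 each of the 4 genes is protein coding, and the first listed transcript of each has its coding sequence in 2 exons. The coding length was 444 bases in Id1, 402 in Id2, 357 in Id3 and 483 in Id4, within transcripts of 934, 1270, 1278 and 3849 bases. The gene in the expression tables ends at 48264036 for Id4, whereas GENCODE M21 carries the gene on to 48266026, and reads from that stretch may not be part of the estimate.

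The labels were checked with the targeted genes and the precision with the estimates' own intervals. Tnfrsf11a, the gene of RANK, had 2.07 and 0.962 FPKM in triple-mutant and 10.6 and 11.9 FPKM in double-mutant tumors (difference -2.32, standard error 0.37, limma adjusted p = 0.22), on the side that the labels give. Brca1 and Trp53 are targeted in both genotypes, and RNA of both was present, at 3.26 to 5.69 FPKM and 15.7 to 149.7 FPKM. Both were lower in the triple-mutant tumors without overlap. Brca1 differed by -0.41 (standard error 0.34). Trp53 had 15.7 and 87.8 FPKM against 149.7 and 103 FPKM (difference -1.70, standard error 0.85), a difference that was not explained here. Between 12150 and 12681 genes had at least 1 FPKM per tumor. Among expressed genes the median half-width of the Cufflinks interval was 8.35% to 8.78%, and 45.1% to 53.2% of them had an FPKM outside their own interval, Id1 and Id3 among them in every tumor and Id4 in both triple-mutant tumors.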

How the data were processed

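PolyA RNA of 4 mammary tumors was sequenced by the authors as strand-marked 50-base single-end libraries. Per the submitters' processing notes, reads were aligned to mm10 with TopHat2 2.0.10 and Bowtie 0.12.9, and the deposited tables hold FPKM per gene from Cufflinks 2.1.1, with its confidence interval. The gene annotation is not given in the sources used here. The authors' HTSeq counts and DESeq2 1.6.2 results were not analysed here. No whole-read steps were found in the FPKM, and depth per tumor is therefore unknown. Per the labels, replicates are different tumors.

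The 12752 of 23746 rows (23284 symbols) that reached 1 FPKM in 2 or more of the 4 tumors were fitted as log2(FPKM + 1) in limma 3.58.1 under R 4.3.3, by lmFit and then eBayes with its trend option. Differences are triple-mutant minus double-mutant, and p was corrected by Benjamini-Hochberg with 0.05 as the threshold. A test on the log scale was used because FPKM are not counts. A fold change on this scale understates the change of low genes. The script was tested on simulated data. Tables, sequences and figures were handled in Python 3.11.15 with numpy 2.4.6, pandas 2.3.3 and matplotlib 3.10.9.

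The Id family, the 20 gene lists and the markers were chosen with earlier results of these data known, and support nothing by themselves. Named were the Id and E protein genes, Tnfrsf11a, Brca1 and Trp53, in each list up to 4 members with the widest difference of at least 1 log2 unit without overlap and the 2 of highest mean FPKM, the 5 nearest profiles and the flanking tested genes. Some members that this rule names are given by their list only. The 13 alternatives were another pseudocount, no filter, a filter of 5 FPKM, TPM, quantile normalization, limma without the trend, rows of status OK, no small RNA genes, interval midpoints, and each tumor left out. Table starts count from 0, and 1 was added. Promoters are from RefSeq, and protein sequences were not used here.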

Additional observations from a re-analysis of the deposited data

How the results depend on the processing

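The differences of Id1, Id2, Id3 and Id4 kept their direction under all 13 alternatives. When 1 tumor was left out they ranged from 1.79 to 3.71 for Id1, from -2.78 to -0.44 for Id2, from 3.11 to 4.82 for Id3 and from 6.07 to 6.96 for Id4, in log2 units. Under the other alternatives they ranged from 2.48 to 2.89, from -1.66 to -1.47, from 3.59 to 4.10 and from 6.50 to 7.45, the last at a pseudocount of 0.1 FPKM, which raises the difference of a gene near 0 by construction. The count of genes past the adjusted p of 0.05 was 0 and stayed there except for 6 genes with quantile normalization, 5 without the limma trend and 1 with interval midpoints, and the cause was not tested.

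A change of sign was seen 13 times, in 7 genes. When 1 tumor was left out, the difference ranged from -0.17 to 0.16 for Bhlhe40 (above 0 without 26044 or without 26048, at 0.06), from -4.79 to 0.57 for Fabp4 (0.41 without 26043, 0.57 without 26048), from -1.73 to 1.33 for Gata3 (1.33 without 26044, 0.57 without 26050) and from -0.85 to 0.33 for Hey1 (0.33 without 26050). It ranged from -0.25 to 0.35 for Smad4 (-0.027 without 26044, -0.25 without 26050), from -0.042 to 0.33 for Sox10 and from -0.12 to 0.40 for Tcf12, both below 0 without 26050. With interval midpoints it was 0.016 for Gata3 and -0.034 for Sox10. The cause was not tested. Medians of gene lists moved by more than the SD of the list mean between tumors of a genotype in 26 recomputations and by less in 193. Among them were the BMP target median of 1.28 (0.40 with a filter of 5 FPKM, 2.32 with a pseudocount of 0.1 FPKM) and the BMP ligand median of 0.84 (1.75 with that pseudocount). No paired analysis was possible because the tumor numbers are shared by no samples of different genotypes. With 2 tumors per genotype and unknown depth, levels under about 1 FPKM, such as that of Id4 in double-mutant tumors, are known only to within wide intervals.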
